A study of Mus musculus with 2 samples.

Results

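The genes followed here through the single-cell data of the mouse coronal suture make, carry, sense or break down retinoic acid. These 9 genes are *Rdh10*, *Aldh1a1*, *Aldh1a2*, *Aldh1a3*, *Crabp1*, *Crabp2*, *Cyp26b1*, *Rarb* and *Rarg*, chosen by symbol for their place in the pathway, with earlier results of these data known. Each has 1 row among the 31053 genes listed at E15.5 and the 27998 listed at E17.5. Retinoic acid is made from vitamin A in a pair of steps, the oxidation of retinol to retinaldehyde by dehydrogenases such as Rdh10, and the oxidation of retinaldehyde by the Aldh1a enzymes. Inside cells it is bound by Crabp1 or Crabp2, it is cleared by the Cyp26 enzymes, and in the nucleus it acts through retinoic acid receptors paired with retinoid X receptors. In the head it takes part in patterning of the skull, and the meninges are a known site of its synthesis.

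Cells came from coronal sutures of wild-type C57/BL6 mouse embryos at E15.5 and E17.5, dissected with some frontal and parietal bone after removal of the skin, the brain and part of the meninges. For the E15.5 library, 10 pooled sutures were digested in a mix of dispase and collagenase II, and dead cells were then depleted with a kit. The E17.5 library joins 3 batches with 16 sutures from 2 litters, digested with collagenase IV and sorted by FACS. Both used the 10x Genomics Chromium 3′ chemistry, in which each captured molecule is counted once as a unique molecular identifier (UMI). The 3 batches, prepared separately, were deposited as 1 matrix, called the E17.5 library here. E15.5 has no replicate, and no test between stages was run. Stage, enzyme, sorting, embryos, sequencing site, gene list and the counting of reads cannot be told apart.

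The authors labelled 15 osteogenic and mesenchymal clusters, with 48607817 UMIs in 5335 labelled cells of the E15.5 library (median 8510 per cell) and 92585034 in 6830 cells of the other (median 12301.5). The ectocranial clusters are EC1 to EC4 and the ligament-like LIG, the meningeal clusters MG1 to MG4, and the osteogenic clusters OG1 to OG4 and the proliferating PO1 and PO2. At E15.5 MG1 held 28 cells and PO2 held 35, so their levels rest on few UMIs. The labels were looked at with 45 pairs of a cluster and a marker, *Cenpf*, *Mki67* and *Top2a* standing for both PO1 and PO2. In 38 pairs the marker was at least 2-fold above all other labelled cells in both libraries. Many of these markers were named by the authors for clusters of these same cells, so this is no independent check. Each cluster except OG2 had such a marker. For OG2, *Lef1* and *Inhba* were below 2-fold at E17.5 and *Tcf7* was below it at E15.5, so values in OG2 are for cells grouped by label. Barcodes at E17.5 end in a suffix from 1 to 3, which the labels do not tie to a batch, and suffix 1 had 1234 labelled cells with 0 in MG1, 7 in MG4 and 32 in LIG. The E15.5 and E17.5 matrices share 190 barcode sequences.

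Levels are UMIs of a gene summed over the cells of a cluster, per 1000000 UMIs of that cluster (CPM), with an exact Poisson 95% interval that covers counting error only. Since transcript length and 3′ capture differ, levels are compared between clusters and stages and not between genes. To show how much of a low level could come from free RNA, each gene is also given in barcodes without a label that held at least 3 of 6 markers of macrophages and other myeloid cells, which are not thought to express most of these genes. There were 407 such barcodes in the E15.5 library (median 10470 UMIs) and 858 at E17.5 (median 12066.5 UMIs), called the myeloid reference here. They include barcodes that also held at least 3 markers of another cell type, and without these 272 and 620 remain. Unlabelled barcodes with markers of several cell types had a median of 15241 UMIs at E15.5 and 26214 at E17.5. Those with myeloid markers alone had 9137 and 9967, so the mixed ones weigh more in a summed level. How far they change the reference was not tested. Whether the reference barcodes hold some of the genes of their own was not tested. A gene was called for a cluster when its CPM there, in both libraries, reached 2 times the CPM over the remaining labelled cells. Each of the 9 genes had at least 50 UMIs in each library, and 6 of the 9 were called in at least 1 cluster, where 20.7% of the 11868 genes tested were. The authors defined the clusters on these cells, and *Aldh1a2* and *Crabp2* were among the genes they used to describe the meninges, so the calls describe the clusters and are no independent evidence.

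*Aldh1a3* marked EC2, *Aldh1a2* MG4 and EC3, *Aldh1a1* MG1, *Crabp1* OG2, *Crabp2* MG3, MG4 and EC4, and *Rarb* MG2, MG3 and MG4, whereas *Rdh10*, *Cyp26b1* and *Rarg* were called in no cluster. The rule called 3 of the 9 genes in MG4 (3.09% of all genes tested), 2 in MG3 (3.53%) and 1 each in MG1 (1.47%), MG2 (2.44%), EC2 (2.45%), EC3 (1.34%), EC4 (1.26%) and OG2 (0.236%). None was called in EC1 (0.699%), LIG (0.767%), OG1 (0.295%), OG3 (0.725%), OG4 (3.02%), PO1 (3.95%) or PO2 (3.01%). With clusters pooled by layer, *Crabp2* and *Rarb* were called for the meningeal layer (3.02%), *Aldh1a3* for the ectocranial layer (4.26%) and none of the 9 for the osteogenic layer (2.96%).

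**Figure D1:**
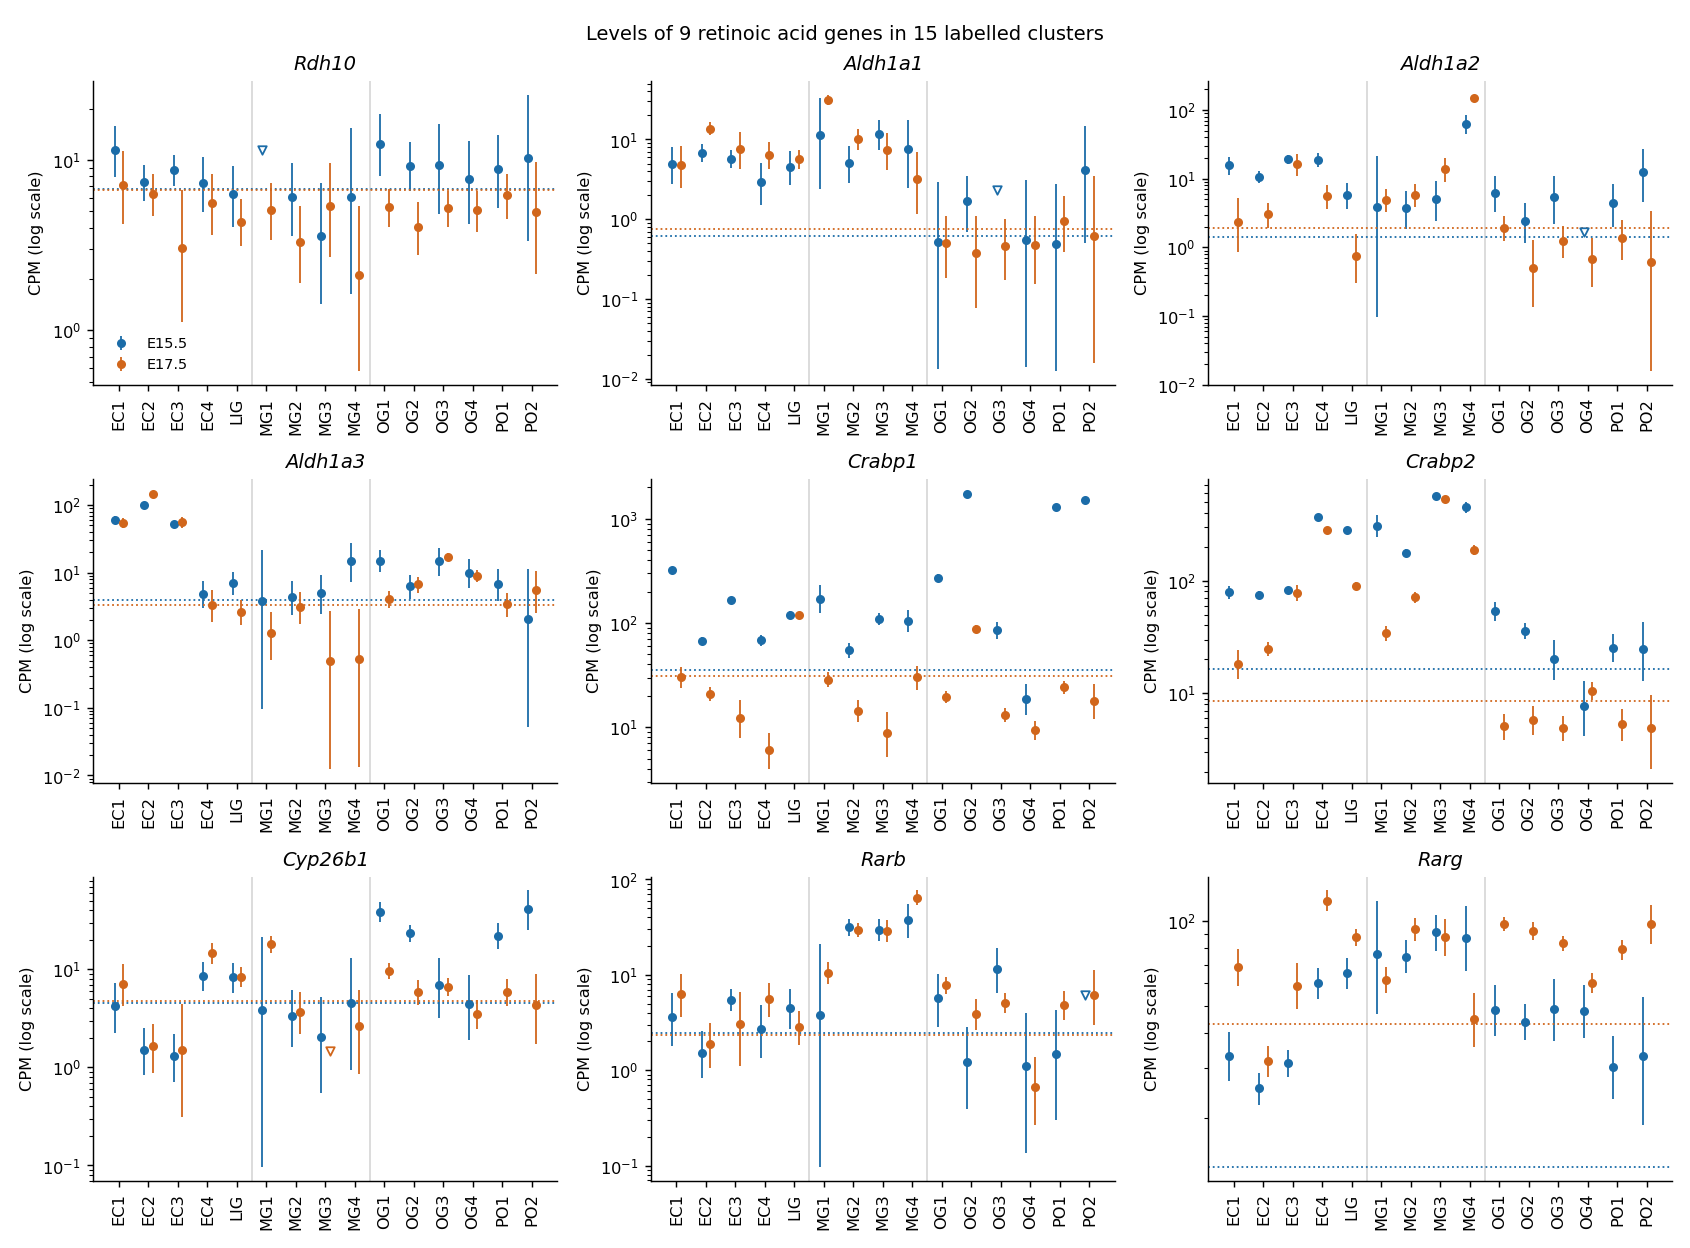
Level of each of the 9 genes (CPM, log scale) in the 15 labelled clusters at E15.5 (blue) and E17.5 (orange). Points are sums over the cells of a cluster, bars are exact Poisson 95% intervals, open triangles mark the level of 3 UMIs where none was counted, and dotted lines are the myeloid reference of each stage. *Crabp1* in OG2 sits at 1742 CPM at E15.5 and 88.5 CPM at E17.5, whereas *Crabp2* in MG3 sits at 567 and 529 CPM.

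**Figure D2:**
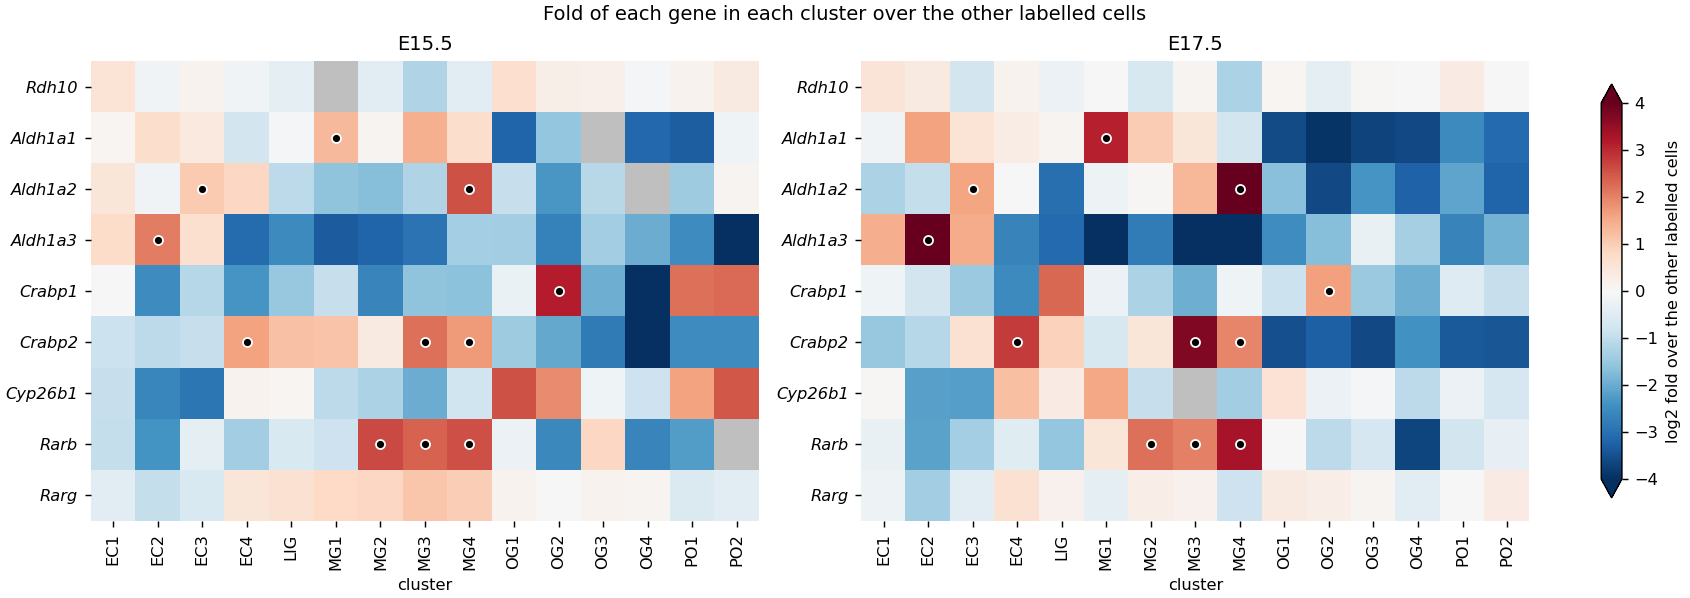
Fold of each gene in each cluster over all other labelled cells of the same library, on the log2 scale, with red above and blue below and colours saturated beyond 4. Dots mark the 11 pairs of a gene and a cluster that were at least 2-fold higher in both libraries, and grey cells had no UMI.

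*Rdh10* (ENSMUSG00000025921, GRCm38 chromosome 1 from 16105774 to 16133734), the enzyme of the first oxidation step, was low throughout. The lowest count at E15.5 was 0 UMIs in MG1, where 3 UMIs would be 11.5 CPM. Its level had a median of 7.74 CPM over clusters and reached 12.5 CPM in OG1 (95% interval 8.0 to 18.6). At E17.5 it ranged from 2.11 CPM in MG4 through a median of 5.09 CPM to 7.12 CPM in EC1 (4.22 to 11.2). The myeloid reference was at 6.78 CPM (4.67 to 9.53) and 6.62 CPM (5.37 to 8.08), and no cluster lay above it with intervals apart in either library. After each cell was thinned to 3000 UMIs, *Rdh10* was found in 2.32% of EC2 cells at E15.5 (exact binomial interval 1.44 to 3.52%). The share was 3.43% in OG1 (1.49 to 6.65%) and highest in MG4, at 4.84% (1.01 to 13.5%). In the myeloid reference it was 0.758% (0.157 to 2.20%), which overlaps each of these. At E17.5 the share was 1.32% in EC2, 3.31% in PO1, the highest (1.72 to 5.70%), and 2.45% in the reference (1.52 to 3.72%). The CPM of MG2 at E17.5 lay below the reference, with intervals apart. At this depth *Rdh10* was thus above the myeloid reference in no cluster, which does not show that the gene is absent. Whether the reference cells hold *Rdh10* of their own was not tested.

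*Aldh1a1* (ENSMUSG00000053279, chromosome 19 from 20492715 to 20643465), an enzyme that oxidizes retinaldehyde, was found in meningeal and ectocranial clusters. In MG1 it had 3 UMIs at E15.5 (11.5 CPM, 2.36 to 33.5) and 172 at E17.5 (31.2 CPM, 26.7 to 36.3). The fold over other labelled cells was 2.47 at E15.5 with an interval of 0.506 to 7.32, so the call in MG1 rests on E17.5, where the fold was 8.64 (7.13 to 10.4). Suffixes 2 and 3 had 31.5 and 31.0 CPM in MG1. Next in order at E17.5 were EC2 at 13.7 CPM (11.3 to 16.5) and MG2 at 10.1 CPM (7.49 to 13.4), which overlap. In EC2 the suffixes differed, with 4.79 CPM (2.39 to 8.58) in suffix 1 and 16.3 and 18.3 CPM in suffixes 2 and 3. MG3 had 11.7 CPM at E15.5 (7.42 to 17.6). The 6 osteogenic clusters together were at 1.03 CPM in the E15.5 library (0.532 to 1.80) and 0.537 CPM in the later one (0.357 to 0.776), beside 0.617 and 0.751 CPM in the myeloid reference.

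*Aldh1a2* (ENSMUSG00000013584, chromosome 9 from 71215789 to 71296243), the enzyme that makes most retinoic acid in the early embryo, was highest in MG4, the cluster that carries arachnoid markers. It had 42 UMIs and 63.2 CPM in MG4 at E15.5 (45.6 to 85.4) and 282 UMIs and 148 CPM at E17.5 (132 to 167). The fold over other labelled cells was 5.86 (4.17 to 8.03) at E15.5 and 56.6 (47.4 to 67.5) at E17.5. Both the level in MG4 and the gap to the other clusters were thus higher at E17.5. The other labelled cells had 10.8 CPM at E15.5 and 2.62 CPM at E17.5. The mix of clusters in that pool also differed, and its part in the wider gap was not tested. In thinned cells it was seen in 16.1% of MG4 (8.02 to 27.7%) at E15.5 and 30.7% (24.4 to 37.6%) at E17.5, against 0.505% and 0.466% of the myeloid reference. In MG4 at E17.5 the tenth of cells with most *Aldh1a2* held 46.8% of its UMIs, and the highest cell held 11. Suffix 1, with 7 MG4 cells, had 323 CPM (209 to 476), and suffixes 2 and 3 had 145 and 137 CPM.

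Outside MG4, *Aldh1a2* at E15.5 was spread over the hypodermal and suprasutural clusters, with 15.6 CPM in EC1, 19.1 CPM in EC3 and 19.1 CPM in EC4, whose intervals overlap. At E17.5 EC3 kept 16.2 CPM (11.1 to 22.9), whereas EC1 had 2.37 CPM and EC4 had 5.56 CPM. EC3 passed the 2-fold limit narrowly, at 2.05 (1.71 to 2.44) and 3.02 (2.04 to 4.32). The call for EC3 was lost when cells were averaged or thinned, when the other clusters were averaged without weights, and in suffix 2, where EC3 had 7 UMIs and 7.35 CPM (2.95 to 15.1).

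*Aldh1a3* (ENSMUSG00000015134, chromosome 7 from 66390890 to 66427517), the remaining retinaldehyde dehydrogenase of the set, was a gene of the hypodermal layers EC1, EC2 and EC3. EC2 had 99.1 CPM at E15.5 (92.8 to 106) and 144 CPM at E17.5 (136 to 153). EC1 had 60.5 and 53.8 CPM and EC3 had 53.1 and 55.3 CPM, and the intervals of EC1 and EC3 overlap at both stages. EC4 and LIG, the other ectocranial clusters, were at 4.89 and 7.02 CPM at E15.5 and at 3.34 and 2.61 CPM at E17.5, near the reference of 3.91 and 3.28 CPM. The fold in EC2 was 4.14 (3.77 to 4.54) at E15.5 and 16 (14.6 to 17.6) at E17.5, but 8.58 in suffix 1 alone. The 3 suffixes had similar levels in EC2, at 132, 142 and 155 CPM. Ectocranial clusters took 92.4% of the labelled *Aldh1a3* UMIs at E15.5 and 75.0% at E17.5, beside 64.0% and 28.2% of all UMIs. In thinned EC2 cells the gene was seen in 24.9% (22.2 to 27.9%) and 34.4% (30.6 to 38.3%), against 0.758% and 1.05% of the myeloid reference.

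Among osteogenic clusters *Aldh1a3* was above the reference in OG3 at both stages, at 14.7 CPM (8.84 to 22.9) and 17.2 CPM (15 to 19.7). OG3 is marked by *Mmp13*, a collagenase gene. The 3 retinaldehyde dehydrogenases therefore had separate highest clusters at E17.5, MG1, MG4 and EC2, and in MG4 *Aldh1a1* had 3.16 CPM and *Aldh1a3* 1 UMI.

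*Crabp1* (ENSMUSG00000032291, chromosome 9 from 54764748 to 54773110), which encodes a cytoplasmic retinoic acid binding protein, was lower at E17.5 in more clusters than any other of the 9 genes. At E15.5 it was at 1742 CPM in OG2 (1702 to 1783), 1508 CPM in PO2 (1400 to 1621) and 1297 CPM in PO1 (1248 to 1347). These 3 clusters do not overlap OG1 at 273 CPM or EC1 at 322 CPM, the next in order. *Crabp1* was in 92.1% of thinned OG2 cells (89.4 to 94.4%) and 3.41% of OG4 cells, the cluster with the osteoblast and osteocyte markers *Ifitm5* and *Dmp1*. The osteogenic clusters together held 70.6% of its UMIs and 24.0% of all UMIs. All clusters but OG4 were above the myeloid reference of 35.4 CPM (30.3 to 41.1).

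At E17.5 *Crabp1* was at 88.5 CPM in OG2 (82.1 to 95.3), 24.2 CPM in PO1 and 17.9 CPM in PO2. The ratios of E15.5 to E17.5 were 19.7 in OG2, 53.6 in PO1 and 84.2 in PO2, and the last 2 are over E17.5 levels below the myeloid reference. Its level was lower at E17.5 by at least 2-fold, with intervals apart, in 14 of 15 clusters. The exception was LIG, at 120 CPM (110 to 132) and 119 CPM (112 to 126), a ratio of E17.5 to E15.5 of 0.985 (0.884 to 1.10). LIG was the highest cluster at E17.5, and its fold over other labelled cells went from 0.349 to 4.93. The myeloid reference was at 31.3 CPM (28.5 to 34.3) at E17.5, where 10 clusters lay below it, 3 overlapped it and LIG and OG2 lay above it. *Crabp1* at E17.5 was thus not above the reference outside LIG and OG2, although single cells held up to 17 UMIs in EC1 and MG1 and 18 in PO1.

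The level of *Crabp1* in LIG at E17.5 was not shared by the suffixes. Suffix 1 had 3 UMIs in 32 cells, or 8.84 CPM (1.82 to 25.8), whereas suffixes 2 and 3 had 126 CPM (115 to 137) and 120 CPM (110 to 130). In suffix 1 the fold over other labelled cells was 0.555. Suffix 1 was also lowest in OG2, with 40.5 CPM beside 94.3 and 99.6 CPM in suffixes 2 and 3, but it was highest in EC2, with 33.1 CPM beside 13.4 and 17.9 CPM. The part of the batch in this difference was not tested. Within LIG the gene was uneven, since the tenth of cells with most *Crabp1* held 70.0% of its UMIs at E15.5 and 68.5% at E17.5, with up to 27 and 33 UMIs in 1 cell. In OG2 that share was 25.5% at E15.5 and 65.7% at E17.5.

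*Crabp2* (ENSMUSG00000004885, chromosome 3 from 87948666 to 87953376) encodes the binding protein known for carrying retinoic acid to its receptors. Its highest clusters at both stages were MG3, MG4 and EC4. In MG3 it was at 567 CPM at E15.5 (534 to 601) and 529 CPM at E17.5 (498 to 562), with folds of 4.65 and 13. All 3 suffixes had between 491 and 544 CPM in MG3. Next at E15.5 came MG4 at 445 CPM and EC4 at 362 CPM, then MG1 at 305 CPM (242 to 380) and LIG at 283 CPM (267 to 300), which overlap. At E17.5 EC4 was at 279 CPM (264 to 295), above MG4 at 187 CPM (168 to 207) and LIG at 90.0 CPM (84.0 to 96.4). The order of MG4 and EC4 was thus reversed between the libraries, although the 7 MG4 cells of suffix 1 had 439 CPM (304 to 613). MG1 at E17.5 had 32.7 and 34.9 CPM in suffixes 2 and 3, beside 51.6 CPM over all labelled cells.

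In the osteogenic clusters *Crabp2* ranged from 7.74 to 53.6 CPM at E15.5 and from 4.89 to 10.6 CPM at E17.5, beside a reference of 16.4 and 8.53 CPM. At E17.5 none of the 6 was above the reference. At E15.5 *Crabp1* thus lay mainly in osteogenic clusters, with 960 CPM against 134 CPM in the ectocranial ones. *Crabp2* had the opposite order, with 30.5 CPM against 142 CPM. LIG was a cluster in which both were detected. Among 482 thinned LIG cells at E15.5, 91 had *Crabp1*, 259 had *Crabp2* and 41 had both. *Crabp2* was in 45.1% of LIG cells with *Crabp1* and 55.8% of those without. At E17.5 20 of 675 LIG cells had both, and the shares were 17.2% and 24.3%. In MG4, 21 of 62 cells with *Aldh1a2* at E17.5 also had *Crabp2* (33.9%), beside 40.0% of the other MG4 cells. These counts are limited by depth and give no p-value, since cells of 1 library are not replicates.

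*Cyp26b1* (ENSMUSG00000063415, chromosome 6 from 84571414 to 84593908), which encodes an enzyme that clears retinoic acid and whose loss is known to cause skull defects, was highest in osteogenic clusters at E15.5 and elsewhere at E17.5. Levels at E15.5 were 41.3 CPM in PO2 (25.2 to 63.8), 38.5 CPM in OG1 (30.2 to 48.3), 23.4 CPM in OG2 (19.0 to 28.6) and 22 CPM in PO1 (16.1 to 29.5). These 4 were the clusters above the reference of 4.52 CPM (2.83 to 6.85), and OG3 and OG4 were not among them. At E17.5 the same clusters had 4.32, 9.62, 5.93 and 5.91 CPM, each at least 2-fold lower with intervals apart. Of these, OG1 was still above the reference of 4.71 CPM (3.66 to 5.96), as were EC4, LIG and MG1. Osteogenic clusters held 66.5% of *Cyp26b1* UMIs at E15.5, with 24.0% of all UMIs, and 52.8% at E17.5, with 56.3% of all UMIs.

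At E17.5 the highest clusters of *Cyp26b1* were MG1 at 18.0 CPM (14.6 to 21.9) and EC4 at 14.7 CPM (11.4 to 18.7), which overlap. MG1 had 1 UMI at E15.5, so its ratio of 4.71 has an interval of 0.826 to 188. EC4 had 8.55 CPM at E15.5 (5.95 to 11.9). In MG3, where *Crabp2* was highest, *Cyp26b1* had 4 UMIs at E15.5, and the later library had 0, which allows up to 1.47 CPM. Levels in EC2 and EC3 were between 1.31 and 1.64 CPM at both stages. EC2, the highest cluster for *Aldh1a3*, was thus among the lowest for *Cyp26b1*.

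*Rarb* (ENSMUSG00000017491, chromosome 14 from 16430839 to 16819156) encodes a receptor, and it is also a classical target gene that retinoic acid induces through an element in its promoter. That element is a direct repeat of a pair of 6-base half-sites. The RefSeq promoters of GRCm38.p6 were searched on both strands for the consensus half-site AGGTCA, or its known variants spelled AGTTCA, alternatively GGTTCA, or otherwise written GGGTCA, repeated with 5 bases between them. A promoter here is 250 bases before to 50 after a start site. A match was found in 32 of 32851 promoters (0.0974%). One was in *Rarb*, from 53 to 37 bases before the start, shown with the 120 bases before the start at chr14:16575477-16575596, minus strand, and with the match in capitals.
Rarb: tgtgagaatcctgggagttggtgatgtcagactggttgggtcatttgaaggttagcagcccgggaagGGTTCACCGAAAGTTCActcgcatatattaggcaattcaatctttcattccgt
Promoters were found for 6 of the 9 genes, and those of *Rdh10*, *Aldh1a3* and *Crabp2* were missing from the table. None of the other 5 genes with a promoter had a match with 5, 2 or 1 bases between the half-sites, which says nothing of elements elsewhere. Among the other pathway genes, *Cyp26a1*, a clearance enzyme that retinoic acid is also known to induce, had a match with 5 bases between half-sites. *Cyp26a1* had 5 labelled UMIs in the E15.5 library and 12 in the other, so no cluster level is given. *Bco1*, an enzyme that cleaves carotene, had a match with 1 base between half-sites, a form found in 0.222% of all promoters. The form with 2 bases between half-sites was in 0.268% of all promoters and in none of the 8 promoters of the 9 genes or the 35 of the other pathway genes.

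*Rarb* was highest in meningeal clusters at both stages. It was at 37.6 CPM in MG4 (24.3 to 55.5), 31.7 CPM in MG2 (25.6 to 38.8) and 29.5 CPM in MG3 (22.4 to 38.1) at E15.5, which do not differ beyond their intervals. At E17.5 MG4 was at 64.2 CPM (53.3 to 76.7), above MG2 at 29.5 CPM (24.9 to 34.8) and MG3 at 28.9 CPM (22 to 37.3). The folds over other labelled cells were between 5.12 and 6.20 at E15.5 and were 9.87, 4.56 and 4.01 at E17.5. Meningeal clusters held 54.4% of *Rarb* UMIs at E15.5 and 53.7% at E17.5, with 12.1% and 15.4% of all UMIs. Outside these clusters *Rarb* stayed at or below 11.6 CPM, with MG1 at 10.5 CPM (8.0 to 13.6) at E17.5 and 1 UMI at E15.5. The reference was at 2.47 and 2.32 CPM. *Rarb* was called different between stages in 0 of 15 clusters, and in 2, both higher, when suffix 1 alone stood for E17.5. With the 100 top genes left out of the totals, or with suffix 2 alone, it was called lower in 1 cluster. In suffix 1 the 7 MG4 cells held 3 UMIs, or 38.7 CPM (7.98 to 113), which gave a fold of 4.06.

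*Rarg* (ENSMUSG00000001288, chromosome 15 from 102234938 to 102257517), a receptor known in cartilage and skin, was found in every cluster. It ranged from 25.4 CPM in EC2 (22.3 to 28.9) to 91.0 CPM in MG3 (78.2 to 105) at E15.5, a span of 3.58-fold. At E17.5 it ranged from 31.7 CPM in EC2 (27.9 to 35.9) to 118 CPM in EC4 (108 to 128), a span of 3.72-fold. EC2, the cluster with most *Aldh1a3*, was thus lowest for *Rarg* at both stages. At E15.5 the meningeal clusters MG1 to MG4 were between 74.8 and 91.0 CPM and overlapped one another. In 5 clusters, EC1, OG1, OG2, PO1 and PO2, *Rarg* was higher at E17.5 by at least 2-fold with intervals apart. The myeloid reference for *Rarg* moved as well, from 13.4 CPM (10.3 to 17) to 43.2 CPM (39.9 to 46.7), a ratio of 3.23 (2.5 to 4.24). The ratios in the 5 clusters were from 2.02 to 2.95. MG4 went the other way, with the lowest ratio, 0.513, just short of the 2-fold rule. With cells averaged, the 100 top genes left out, cells thinned or suffix 2 alone, 1 cluster was called lower. All 15 clusters were above the reference at E15.5 and 13 were at E17.5. The part of free RNA in the difference between stages was not tested.

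Across the set, 49 of 135 pairs of a gene and a cluster passed the rule for a stage difference, 2-fold with intervals apart. Of these, 42 were lower at E17.5 and 7 were higher, beside 6.6% and 4.93% of the pairs of all genes tested. The median ratio of E17.5 to E15.5 was 0.708 for the set and 0.999 over all genes. *Crabp1* with 14 and *Crabp2* with 11 gave most of the pairs that were lower. *Crabp2* was lower in 5 of the 6 osteogenic clusters, and in EC1, EC2, LIG, MG1, MG2 and MG4, while its level in the myeloid reference had a ratio of 0.519 (0.389 to 0.696). The ratio of E17.5 to E15.5 was 0.934 (0.858 to 1.02) in MG3, 0.940 (0.787 to 1.12) in EC3 and 0.771 (0.715 to 0.832) in EC4. *Aldh1a2* was lower in 7 clusters and higher in MG4, at a ratio of 2.35 (1.69 to 3.33). *Cyp26b1* was lower in 4 clusters, *Aldh1a3* in 3 and *Rdh10* in 3. *Aldh1a1* was higher in EC2, at a ratio of 2.00 (1.46 to 2.78), which lies at the limit. That call was lost with the 100 top genes left out of the totals and in suffix 1, where EC2 was below its E15.5 level of 6.84 CPM. In thinned cells and in suffix 1 alone, *Aldh1a2* was lower in 2 clusters, *Aldh1a3* in 1 and *Rdh10* in 0. *Cyp26b1* was lower in 2 clusters in thinned cells and in 3 in suffix 1.

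**Figure D3:**
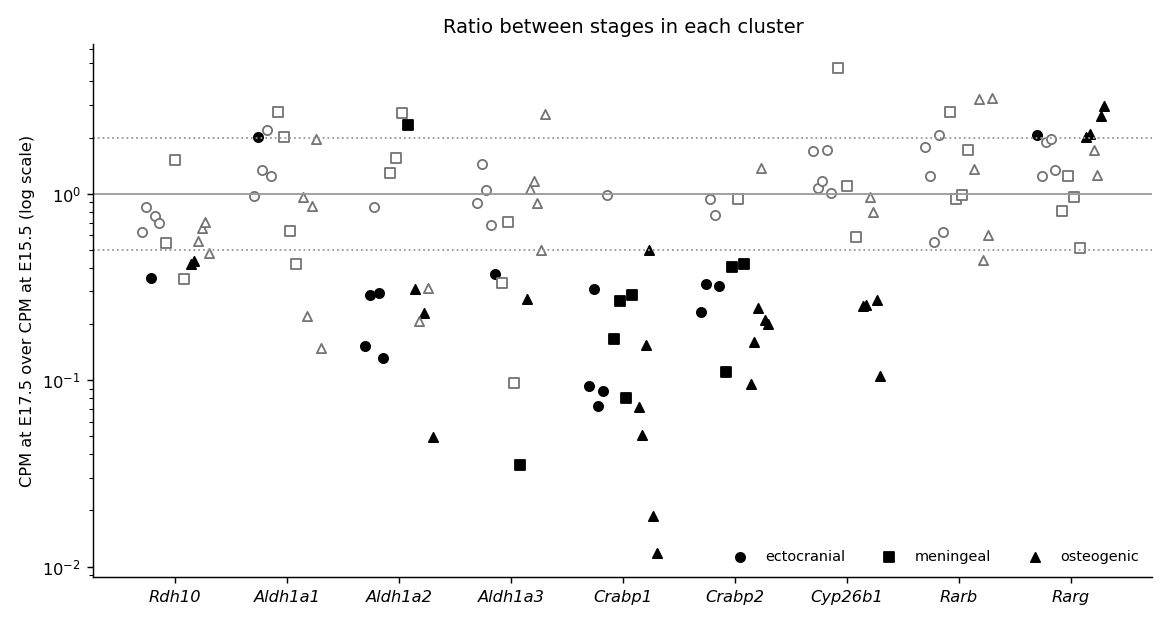
Ratio of CPM at E17.5 to CPM at E15.5 for each gene in each cluster, on a log scale. Filled symbols are the 49 pairs that were at least 2-fold different (dotted lines) with intervals apart, and pairs with no UMI in a library are left out. *Crabp1* lies below 0.5 in every cluster but LIG, and *Rarg* lies above 1 in 12 clusters.

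**Figure D4:**
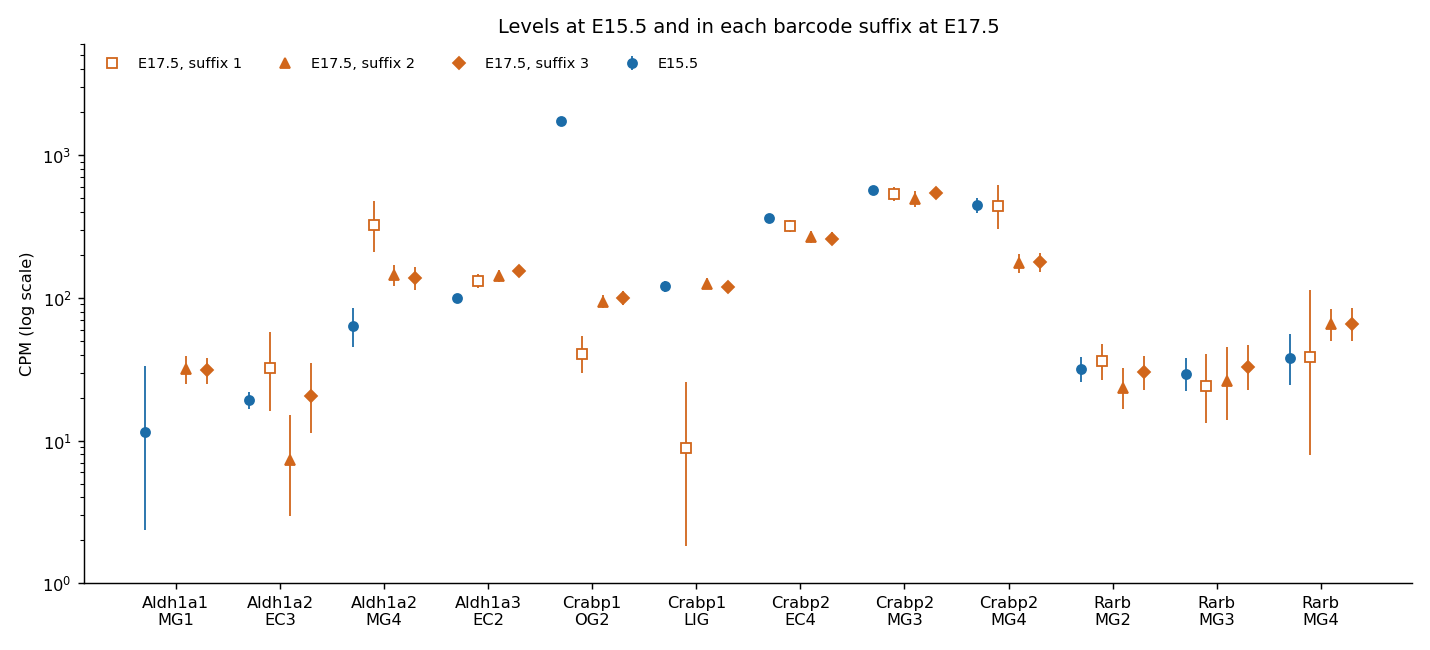
Level (CPM, log scale) of the 11 called pairs and of *Crabp1* in LIG, at E15.5 (blue) and in each barcode suffix at E17.5 (orange), with exact Poisson 95% intervals. Suffix 1 had no cell in MG1. *Crabp1* in LIG is at 8.84 CPM in suffix 1 and at 126 and 120 CPM in suffixes 2 and 3.

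For comparison, 23 other genes of vitamin A transport, metabolism and signalling were listed, of which 18 had at least 50 UMIs in each library. Of the 18, 8 were called in at least 1 cluster (20.7% of all genes tested), with 16 pairs of a gene and a cluster, and 4 of the 8 were called for the pooled meningeal clusters (3.02%). *Stra6*, which encodes the membrane receptor that takes up retinol, was at 48.3 CPM in MG3 and 57.2 CPM in MG4 at E15.5 and at 53.9 and 35.3 CPM at E17.5. *Dhrs3*, which encodes an enzyme that returns retinaldehyde to retinol, was called in MG1, MG2 and MG3 and reached 64.7 CPM in MG2 at E15.5 and 111 CPM in MG3 at E17.5. *Tgm2*, a known target of retinoic acid, was called in MG2, MG3 and MG4 and had 60.2 and 24.7 CPM in MG4. In EC2 and EC3, next to *Aldh1a3* and *Aldh1a2*, alcohol dehydrogenase genes were called, *Adh7* in EC2 at 28.3 and 43.0 CPM and *Adh1* in EC3 at 15 and 22.9 CPM. *Rxrg*, a retinoid X receptor, was called in OG1, at 10.9 CPM (6.76 to 16.7) and 15 CPM (12.9 to 17.3), and in PO2, where it had 4 UMIs at E15.5. *Rdh11* was called in PO2 at 35.1 and 37.0 CPM. The other 10 genes tested, among them *Rara*, *Rxra* and *Rxrb*, were called in no cluster. *Lrat*, *Aldh8a1*, *Bco1*, *Cyp26a1* and *Cyp26c1* had too few UMIs to be tested.

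The genes with the pattern most like each member were taken as those with the highest Pearson r across the 15 clusters in the library where r was lower, among 9648 other genes with at least 200 UMIs in each library. Clusters share their library and depth, so r is a description. Among those given, *Rarb* was most like *Scube3* (r = 0.949 at E15.5, r = 0.901 at E17.5), then *Tspan18*. *Aldh1a3* was most like *Stmn4* (0.913 and 0.924), *Prkg2* and *Rras2*. *Cyp26b1* was most like *Nkd1* (0.898 and 0.885), an inhibitor of Wnt signalling, then *Cplx2* and *Fam107b*. *Aldh1a1* was most like *Reck* (0.880 and 0.882), *Kidins220* and *Rarres2*, and *Crabp2* was most like *Gstm6* (0.879 and 0.868), *Rassf2* and *Gstt1*. *Rarg* was most like *Clec11a* (0.821 and 0.821), *Hip1* and *Alx4*, and *Aldh1a2* was most like *Rdh14* (0.768 and 0.829), *Tcaf1* and *Agtrap*. *Crabp1* was most like *Dgcr6* (0.721 and 0.798), *Cldn10* and *Ncbp2*, and *Rdh10* was most like *Vac14* (0.798 and 0.766), *Atad5* and *Edrf1*. With 391 and 466 labelled UMIs, *Rdh10* was above the myeloid reference in no cluster, so its r rests on low counts.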

How the data were processed

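The authors deposited 1 count matrix per stage, with raw UMIs by gene and barcode, unfiltered for cell quality. Per the labels, reads were aligned to mm10 and counted with Cell Ranger. Version 3.1.0 stands in the header at E15.5, whereas the study's methods name an earlier one. Cluster labels came from a second deposited file, made with Seurat 3.2.0, whose percent columns (mitochondrial and haemoglobin UMIs per cell) were not used for levels. The table's UMIs of a cell equal the matrix in 6830 of 6830 cells at E17.5 and in 0 at E15.5, where 5 cells of the table are not in the matrix. The E15.5 counts used here are thus not those behind its clusters. The part of this counting in the ratios between stages was not tested. Barcodes without a label were used only with at least 1000 UMIs and 1000 genes, at most 7.5% mitochondrial and at most 3% Hba or Hbb UMIs. Doublets were not called, and the E17.5 sort was stated to remove them.

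Computation used scipy 1.17.1, pandas 2.3.3 and numpy 2.4.6 under Python 3.11.15. Ratios have exact conditional 95% intervals, and shares have Clopper-Pearson intervals. Where no UMI was counted, 3 counts of the total are given. No p-value was computed. Likeness used log2(CPM + 1). The genes and lists were chosen with earlier results of these data known. All 9 members are named, and of the 23 other pathway genes those called in a cluster are given with values, except 1 that is not reported here. The computation was tested on simulated data. Alternatives were other normalizations, cell limits, thinning, fold limits, each suffix alone, matching by identifier and, chosen after seeing the data, leaving out clusters under 50 cells.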

Additional observations from a re-analysis of the deposited data

How the results depend on the processing

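The number of members called in a cluster was 6 under all 11 alternatives run. Dropping the limit on UMIs could not change it, since every member passed that limit. The members were the same 6 in each except suffix 1 alone, which has no MG1 cell, so *Aldh1a1* was not called and *Cyp26b1* was, in PO2. Of the 11 pairs of a gene and a cluster, between 10 and 11 were kept, and the lost ones were *Aldh1a2* in EC3 and *Aldh1a1* in MG1. Pairs were also gained. *Crabp2* was called in LIG with suffix 2 or 3 alone. *Aldh1a3* was called in EC1 and EC3 when the other clusters were averaged without weights. The fold limit of 1.5 added these pairs and *Aldh1a1* in EC2, for 15 pairs. Without clusters under 50 cells, *Aldh1a1* was called in MG3 in place of MG1. The number of pairs differing between stages was 49, and between 35 and 53 under the alternatives. All 6830 labelled cells at E17.5 were within the cell limits, so that alternative could not move the E17.5 folds, which are counted below. Among 97 alternative values of the fold in the highest cluster, 71 lay inside the interval of the main fold, 25 moved outside it and 1 reversed, *Crabp1* in LIG at E17.5, from 4.93 to 0.555 in suffix 1 alone. In suffix 1 the cause was not tested, and it has 32 LIG cells. Folds that moved by over 1.5 times were *Rarb* in MG4 (9.87 to 4.06), *Aldh1a3* in EC2 (16 to 8.58) and *Aldh1a2* in MG4 (56.6 to 89.4), all in suffix 1, and *Aldh1a1* in MG3 at E15.5 (2.67 to 4.76) in thinned cells. No paired analysis was possible because E15.5 has 1 library, the labels give 1 sample per stage and no test was run. Depth limits *Rdh10* in all clusters, and MG1 and PO2 at E15.5.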

Other observations

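Apart from the myeloid reference, barcodes without a label are in no comparison above. They were sorted by marker lists, with at least 3 markers of 1 list needed, so the classes are ranges and not cell types. The 30 barcodes with glial markers at E17.5 held 57 *Aldh1a3* UMIs, or 181 CPM (137 to 234), beside 144 CPM (136 to 153) in EC2, with overlapping intervals, and at E15.5 there were 4 such barcodes with 4 UMIs. Of the 30, 5 had exactly 3 markers. Barcodes with chondrocyte markers, 1573 at E15.5 and 363 at E17.5, had 85.4 and 102 CPM of *Rarg* and 16.5 and 13.5 CPM of *Cyp26b1*. Their *Cyp26b1* at E17.5 (10.4 to 17.3) was above that of each osteogenic cluster except OG1, whose interval overlaps. The 620 barcodes with myeloid markers alone at E17.5 had 84.8 CPM of *Dhrs3* (78.5 to 91.4), and the 272 at E15.5 had 50.5 CPM (42.4 to 59.7). The 281 barcodes of no list at E17.5 had 35.3 CPM of *Aldh1a2* (29.1 to 42.3), a level above that of each labelled cluster except MG4.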
